A study of Mus musculus with 12 samples.

Results

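The genes described here encode the 3 TGF-beta ligands (Tgfb1, Tgfb2, Tgfb3), the type I and type II receptors that bind them (Tgfbr1, Tgfbr2), the 4 latent TGF-beta binding proteins (Ltbp1, Ltbp2, Ltbp3, Ltbp4) and the inhibitory SMAD protein Smad7. They were taken by gene symbol from the count table of the series and make up 10 of its 19308 genes. All 10 passed the filter on low counts, which kept 14094 genes.

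RNA was sequenced from whole mouse hearts of 4 groups with 3 hearts each, on the C57BL/6 strain: wild type (WT) after sham surgery, Fabp3-null (F3-KO) after sham surgery, WT after transverse aortic constriction (TAC) and F3-KO after TAC. Surgery was done at 8 weeks of age, and every heart was collected 1 week later. TAC narrows the aortic arch and loads the left ventricle with pressure, whereas sham mice had the operation without the constriction. In the F3-KO mice Fabp3, which encodes the fatty acid binding protein of heart and skeletal muscle, was knocked out with CRISPR-Cas9 in the whole animal and not in a chosen cell type.

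TGF-beta ligands are made as inactive precursors. The propeptide stays attached to the mature ligand after cleavage, and in most cells it is bonded to a latent TGF-beta binding protein, which ties the complex to fibrillin and fibronectin fibres until integrins, thrombospondin or proteases release the ligand. The active ligand joins the type II receptor to the type I receptor, which phosphorylates SMAD2 and SMAD3. Smad7 is itself a target of this signal and blocks the type I receptor. In the pressure-loaded heart the pathway is best known for turning fibroblasts into matrix-producing cells, with collagens, periostin and connective tissue growth factor among its targets. These assays measured mRNA, so that release of the ligand and receptor activity lie outside them.

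The libraries held 10424334 to 14372011 counts. Levels are given as CPM, a gene's count scaled to a common library size, after TMM scaling, which corrects for differences in library composition, and levels of different genes are compared only per kilobase of exon. Fabp3 separated the genotypes in every heart, with 2117 to 3064 CPM in the 6 WT hearts and 1002 to 1143 CPM in the 6 F3-KO hearts. Its mRNA was 0.43-fold of WT after sham and 0.36-fold after TAC (edgeR adjusted p = 0.00784 and 0.00146), so reads of the gene were still counted in F3-KO hearts. The summed level of 5 cardiomyocyte markers was 33152 to 63072 CPM, as fits the labelled tissue. F3-KO TAC replicate 2 stood apart from the other hearts for many of the genes below, and values without it are given beside those that moved most.

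Promoter sequence is shown for 4 genes that serve as examples of the 2 patterns described below: Ltbp2, Tgfb2 and Ltbp3 had their highest level in F3-KO TAC replicate 2, and Tgfb1 did not. The RefSeq table used here (GRCm38.p6) held 12 start sites for 8 of the 10 genes, and the 250 bases before the start are printed 5′ to 3′ along the gene's strand. Capitals mark the SMAD-binding element CAGAC, or GTCTG when it lies on the other strand, in Ltbp2, Tgfb2 and Ltbp3. In Tgfb1 they mark the SP1 element GGGCGG, or CCGCCC on the other strand.
Ltbp2 (chr12:84876492-84876741, minus strand): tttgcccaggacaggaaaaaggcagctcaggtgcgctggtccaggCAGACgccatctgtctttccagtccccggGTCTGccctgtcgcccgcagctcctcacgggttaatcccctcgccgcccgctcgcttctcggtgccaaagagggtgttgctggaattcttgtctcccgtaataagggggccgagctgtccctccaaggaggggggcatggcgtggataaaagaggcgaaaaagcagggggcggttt
Tgfb2 (chr1:186705990-186706239, minus strand): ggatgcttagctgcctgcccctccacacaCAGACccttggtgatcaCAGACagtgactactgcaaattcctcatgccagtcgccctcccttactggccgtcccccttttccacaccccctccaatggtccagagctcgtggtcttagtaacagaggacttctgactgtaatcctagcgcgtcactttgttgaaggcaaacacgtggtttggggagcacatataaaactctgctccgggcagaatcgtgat
Ltbp3 (chr19:5740650-5740899, plus strand): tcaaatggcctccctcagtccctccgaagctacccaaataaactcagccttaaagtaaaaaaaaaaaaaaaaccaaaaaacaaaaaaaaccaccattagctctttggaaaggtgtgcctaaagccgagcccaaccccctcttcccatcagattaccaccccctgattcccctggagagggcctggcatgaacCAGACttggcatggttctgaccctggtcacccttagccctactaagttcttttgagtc
Tgfb1 (chr7:25686752-25687001, plus strand): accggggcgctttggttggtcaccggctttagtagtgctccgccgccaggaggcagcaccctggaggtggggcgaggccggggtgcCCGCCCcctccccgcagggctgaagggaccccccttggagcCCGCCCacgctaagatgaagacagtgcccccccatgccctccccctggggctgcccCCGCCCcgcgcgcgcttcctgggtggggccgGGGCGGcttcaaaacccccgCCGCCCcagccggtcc
Ltbp2 and Tgfb2 each held 2 matches to CAGAC, Ltbp3 held 1 and Tgfb1 held 0. Of the windows not printed, Tgfbr1, also highest in F3-KO TAC replicate 2, held 0 at start site 1 and 1 at start site 2. Among genes not highest in that heart, Tgfbr2 held 1, Ltbp1 held 1 and 2 at its start sites and Ltbp4 held 0. Among all 32851 promoter windows of this length in the table, 42.2% held at least 1 match, so a match to these 5 letters is common. GGGCGG, found in 32.7% of all windows, occurred 5 times in Tgfb1 and 2 times in Ltbp2, and in neither of the other windows printed. The TATA box letters TATAAA occurred in the Tgfb2 window only, and in 12.4% of all windows. Neither the AP-1 element TGAGTCA nor the TEAD element CATTCC, with 4.46% and 12.6% of all windows, was found before any of the 12 start sites. These matches are descriptions of the sequence, and no factor binding was measured.

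Ltbp4 was the most abundant of the 10 genes in WT sham hearts and Ltbp2 the least. Per kilobase of exon, Ltbp4 stood at 58.9 ± 2.56 CPM (SD, n = 3). Tgfb1 followed at 19.6 ± 2.59, Tgfbr2 at 10.3 ± 1.77 and Ltbp3 at 9.15 ± 0.3. Below them came Ltbp1 at 7.55 ± 1.46, Tgfb3 at 6.09 ± 0.543 and Smad7 at 5.55 ± 1.94. Tgfbr1 at 3.55 ± 0.157 and Tgfb2 at 3.54 ± 0.333 were nearly level. Ltbp2 reached 0.225 ± 0.0805 CPM per kilobase. The hearts of neighbouring genes in this order overlapped between Tgfbr2 and Ltbp3, and at each step from Ltbp1 down to Tgfb2, so those ranks are not separated beyond the spread. Ltbp4, Tgfb1, and Ltbp2 at the other end did not overlap with their neighbours.

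No member passed an adjusted p under 0.05 in edgeR's quasi-likelihood test in any of the 6 comparisons made. The 0 members called stand against 0% of all 14094 genes for TAC against sham in WT hearts, 0% in F3-KO hearts and 0.078% averaged over both genotypes. The corresponding shares were 0.106% for F3-KO against WT after sham, 0.078% after TAC and 0% for the difference between the genotypes in their TAC response (the interaction). At an unadjusted p under 0.05, 6 of 10 members were higher after TAC in F3-KO hearts (Tgfb2, Tgfb3, Tgfbr1, Tgfbr2, Ltbp2 and Ltbp3), against 17.1% of all genes in either direction, and the same 6 averaged over both genotypes, against 17.8%. In WT hearts only Tgfbr2 did so, 1 of 10 against 6.28%. F3-KO against WT gave 0 of 10 after sham, against 6.02%, and 3 of 10 after TAC (Tgfb3, Tgfbr1 and Ltbp2), against 10%. Without F3-KO TAC replicate 2 the counts of the comparisons that use F3-KO TAC hearts were smaller, and the other counts were larger. After TAC in F3-KO hearts 2 members remained higher (Tgfb3 and Ltbp2) and Smad7 was lower, 3 of 10 against 9.94% of all genes, and averaged over genotypes 4 remained higher (Tgfb3, Tgfbr1, Tgfbr2 and Ltbp2), against 13.2%. F3-KO against WT after TAC then gave 0 of 10, against 5.94%. In WT hearts 2 of 10 were then higher after TAC (Tgfbr2 and Ltbp2), against 6.36%. F3-KO against WT after sham gave 1 of 10 higher, against 5.94%.

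The median log2 fold change of the 10 genes after TAC was 0.19 in WT and 0.48 in F3-KO hearts, beside 0.00 and 0.02 for all genes tested, and the F3-KO median was 0.25 without replicate 2. After sham, the log2 difference of F3-KO from WT ran from -0.41 ± 0.33 for Tgfb2 to 0.68 ± 1.26 for Ltbp2, with adjusted p of 0.998 to 1.0.

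**Figure D1:**
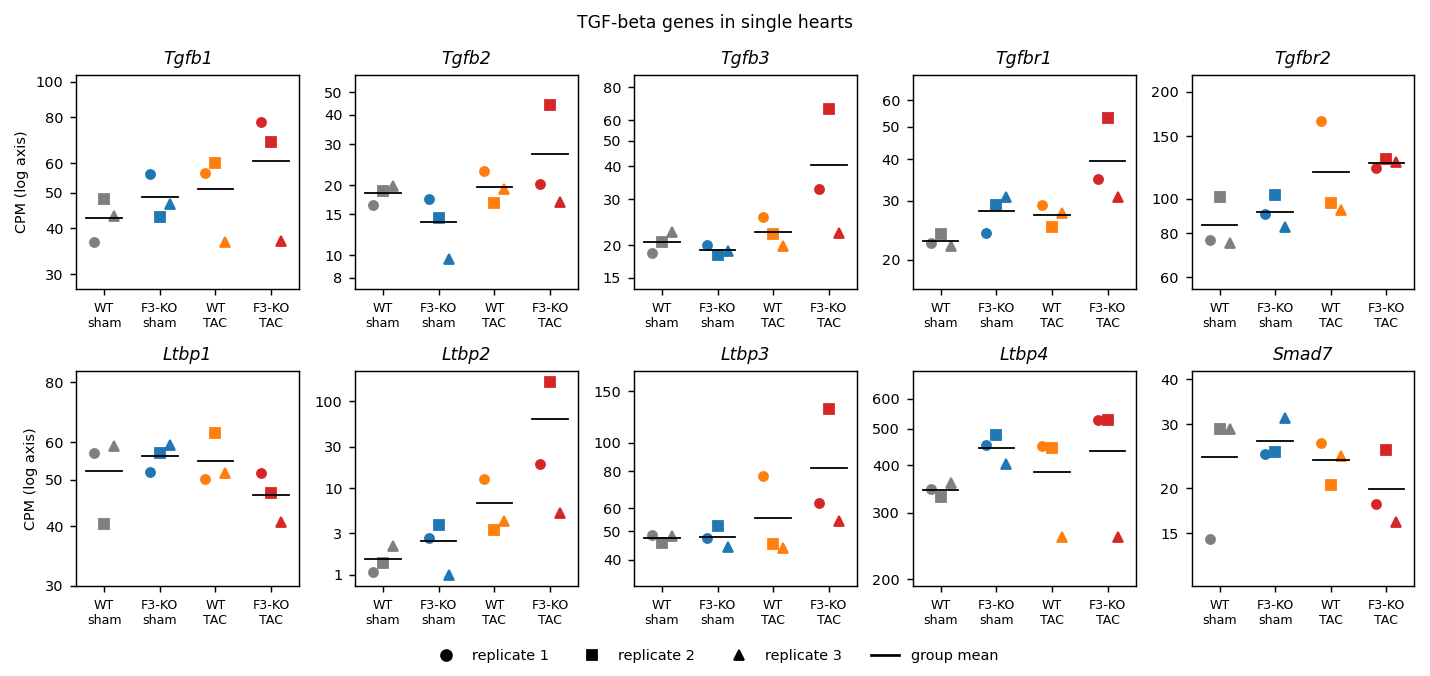
CPM of each gene in each heart on a log axis, with 1 point per heart (circle, square and triangle for replicates 1, 2 and 3) and a line at the group mean. F3-KO TAC replicate 2 (red square) is the highest of all 12 hearts for Tgfb2, Tgfb3, Tgfbr1, Ltbp2 and Ltbp3, while replicate 3 of both TAC groups lies low for Tgfb1 and Ltbp4.

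The calls of several members depended on the test or on 1 heart. By limma-trend 0 members were called in all 6 comparisons, and DESeq2 called 0 in WT hearts, between genotypes and for the interaction. DESeq2's Wald test called Tgfb3 (adjusted p = 0.0382) and Ltbp2 (adjusted p = 0.00509) higher after TAC in F3-KO hearts, 2 of 10 members against 3% of the genes it tested. Averaged over both genotypes it called Ltbp2 (adjusted p = 0.00178), 1 of 10 against 4.06%. Without F3-KO TAC replicate 3, edgeR called Tgfb2, Tgfb3 and Ltbp2 after TAC in F3-KO hearts (adjusted p = 0.0452, 0.0207 and 0.0154), 3 of 10 against 5.43% of genes. The averaged comparison without that heart called Tgfb3, Tgfbr1 and Ltbp2 (adjusted p = 0.0297, 0.0486 and 0.0138), 3 of 10 against 5.92%.

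Ltbp2 encodes the latent binding protein that does not bind latent TGF-beta itself and instead associates with fibrillin-rich fibres. Its mRNA showed the widest range of the 10 genes. WT sham hearts had 1.07, 1.37 and 2.13 CPM, and F3-KO sham hearts had 2.66, 3.72 and 1.01 CPM for replicates 1, 2 and 3. After TAC, WT hearts had 12.6, 3.26 and 4.2 CPM and F3-KO hearts had 19.1, 165.3 and 5.2 CPM. All TAC hearts were above all sham hearts within F3-KO, and within WT as well. F3-KO TAC replicate 2 was 8.64-fold above the next heart, and the F3-KO and WT groups after TAC overlapped. The sham values rest on few reads, 11 to 43 counts per heart, against 37 to 2591 counts after TAC.

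On the log2 scale Ltbp2 was 2.12 ± 1.16 (SE) higher after TAC in WT hearts, a 4.35-fold difference (adjusted p = 0.8). Without F3-KO TAC replicate 2, a heart outside this comparison, the difference was 2.11 ± 0.67 (adjusted p = 0.765). The groups share 1 estimate of the spread, so leaving out a heart can change the SE of every comparison. In F3-KO hearts Ltbp2 was 4.67 ± 1.10 higher, or 25.5-fold (adjusted p = 0.175), and averaged over both genotypes 3.40 ± 0.79, or 10.5-fold (adjusted p = 0.104). Leaving out F3-KO TAC replicate 2 brought the difference within F3-KO hearts to 2.28 ± 0.68, or 4.86-fold (adjusted p = 0.33). The WT difference without WT TAC replicate 1 was 1.26 ± 1.33, or 2.4-fold (adjusted p = 1.0). Without F3-KO TAC replicate 2, the difference between genotypes after TAC moved from 3.23 ± 0.99 to 0.85 ± 0.66 (adjusted p = 0.426 and 0.872). The interaction then moved from 2.55 ± 1.6 to 0.17 ± 0.97 (adjusted p = 0.954 and 1.0). The averaged difference without F3-KO TAC replicate 2 was 2.20 ± 0.48, or 4.58-fold (adjusted p = 0.0982). The size of the genotype difference of Ltbp2 in TAC hearts thus rested on 1 heart, while the other TAC hearts of both genotypes remained above their sham hearts.

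Ltbp3 encodes a latent binding protein that pairs with the TGF-beta precursors. Sham hearts lay in a narrow band, with 48.7, 45.7 and 48.1 CPM in WT and 47.3, 52.1 and 44.3 CPM in F3-KO. After TAC, WT hearts had 77.1, 45.3 and 44.0 CPM and F3-KO hearts had 62.5, 130.1 and 54.4 CPM. A single WT heart thus stood above the sham range, whereas every F3-KO heart did. The log2 difference after TAC was 0.23 ± 0.3 in WT (adjusted p = 0.921) and 0.78 ± 0.3 in F3-KO hearts (adjusted p = 0.223). Without F3-KO TAC replicate 2 the latter was 0.27 ± 0.22 (adjusted p = 0.715).

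Ltbp4, a binder of the latent TGF-beta1 complex that also takes part in elastic fibre assembly, showed a different order of hearts. WT sham hearts had 345.7, 330.0 and 360.0 CPM, and F3-KO sham hearts were all above them, with 453.5, 482.5 and 402.4 CPM. The log2 difference between these groups was 0.37 ± 0.27 (adjusted p = 0.998). In TAC hearts the values were 450.4, 445.0 and 259.3 CPM for WT and 527.3, 526.6 and 259.1 CPM for F3-KO. Replicate 3 of each TAC group was lower than every sham heart, and the other TAC hearts reached the F3-KO sham level or more. TAC against sham came to 0.16 ± 0.27 in WT and -0.03 ± 0.27 in F3-KO hearts on the log2 scale (adjusted p = 0.944 and 0.971), and the sign of the latter changed with the scaling.

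Ltbp1, which binds the precursors of all 3 ligands, was the only latent binder whose F3-KO TAC hearts were all below the F3-KO sham hearts. It had 56.9, 40.5 and 58.8 CPM in WT sham, 52.0, 57.0 and 59.1 CPM in F3-KO sham, 50.2, 62.6 and 51.7 CPM in WT TAC and 51.8, 47.0 and 40.9 CPM in F3-KO TAC hearts. The F3-KO TAC and sham groups did not overlap, by a margin of less than 1 CPM. The log2 difference was -0.27 ± 0.16 (adjusted p = 0.405) in F3-KO and 0.07 ± 0.16 (adjusted p = 0.956) in WT hearts, where the groups overlapped.

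**Figure D2:**
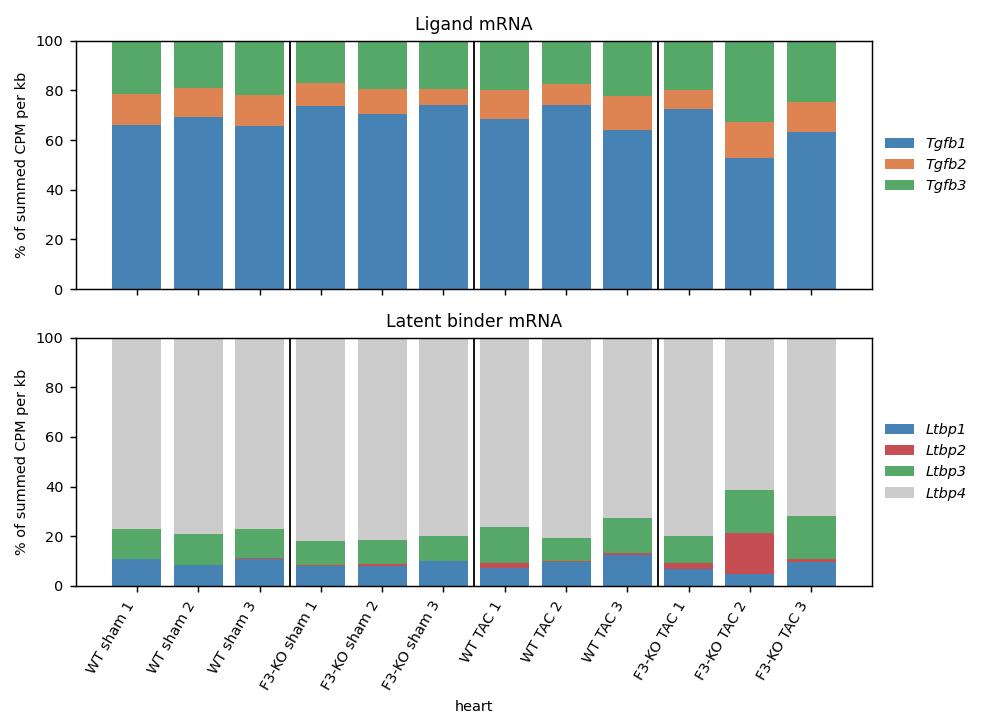
Share of each ligand (top) and each latent binder (bottom) in the summed CPM per kilobase of its set, with 1 bar per heart. In F3-KO TAC replicate 2 the share of Tgfb3 is 32.9% and that of Ltbp2 is 16.7%, above all other hearts.

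The make-up of the set differed in the same heart. Per kilobase, Ltbp4 supplied 72.0% to 81.9% of the latent binder mRNA in 11 hearts and 61.5% in F3-KO TAC replicate 2. Ltbp2 supplied 16.7% there, against 0.173% to 2.52% elsewhere. The set is named by gene family and includes Ltbp2, whose protein does not bind latent TGF-beta itself. These shares are descriptions and were not tested.

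Among the ligands Tgfb1, made by many cell types of the heart, had 36.8, 48.0 and 43.2 CPM in WT sham and 56.2, 42.8 and 46.5 CPM in F3-KO sham hearts. After TAC the values were 56.4, 60.3 and 36.8 CPM in WT and 77.5, 68.6 and 36.9 CPM in F3-KO hearts. Replicate 3 of both TAC groups, which was also lowest for Ltbp4, lay at the lower end of the sham range, while the other TAC hearts exceeded every sham heart. All groups overlapped. TAC was 0.26 ± 0.26 higher in WT (adjusted p = 0.885) and 0.33 ± 0.26 in F3-KO hearts (adjusted p = 0.536) on the log2 scale, and F3-KO was 0.25 ± 0.25 above WT after TAC (adjusted p = 0.739).

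Tgfb2, the ligand that needs betaglycan to bind the type II receptor well, had 16.5, 18.9 and 19.9 CPM in WT sham and 17.5, 14.4 and 9.62 CPM in F3-KO sham hearts. In TAC hearts it had 23.1, 16.8 and 19.2 CPM for WT and 20.3, 44.2 and 17.0 CPM for F3-KO. F3-KO TAC replicate 2 was 1.92-fold above the next heart, WT TAC replicate 1, and the groups overlapped. The log2 difference after TAC was 0.10 ± 0.32 in WT (adjusted p = 0.974) and 0.98 ± 0.32 in F3-KO hearts (adjusted p = 0.187), and 0.42 ± 0.23 in F3-KO without that heart (adjusted p = 0.59). F3-KO against WT after TAC turned from 0.47 ± 0.32 (adjusted p = 0.613) to -0.09 ± 0.23 (adjusted p = 0.962) when it was left out.

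Tgfb3 showed the tightest sham groups of the 3 ligands. WT sham hearts had 18.7, 20.6 and 22.4 CPM and F3-KO sham hearts 20, 18.3 and 19.0 CPM. WT TAC hearts were near them with 25.7, 22.0 and 19.9 CPM, and F3-KO TAC hearts had 32.7, 66.4 and 22.3 CPM. Every F3-KO TAC heart was above every F3-KO sham heart. The log2 difference was 1.08 ± 0.3, or 2.12-fold, within F3-KO (adjusted p = 0.175) and 0.13 ± 0.3 within WT hearts (adjusted p = 0.957). Without F3-KO TAC replicate 2 it was 0.51 ± 0.18, or 1.42-fold, in F3-KO (adjusted p = 0.415). The interaction for Tgfb3 was 0.95 ± 0.43 (adjusted p = 0.954), and it was the only 1 of 10 members with an unadjusted p under 0.05 there, against 4.48% of all genes. That value fell to 0.39 ± 0.24 without the heart (adjusted p = 1.0).

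Tgfb1 made up 63.3% to 74.1% of the ligand mRNA per kilobase in 11 hearts and 52.9% in F3-KO TAC replicate 2. Tgfb3 made up 16.9% to 24.5% in the other hearts. The summed ligand level per kilobase was 25.6 to 31.8 CPM in WT sham and 35.1, 27.9 and 28.8 CPM in F3-KO sham hearts. After TAC it was 38.0, 37.5 and 26.5 CPM in WT and 49.2, 59.7 and 26.8 CPM in F3-KO hearts. Replicate 3 of both TAC groups lay within the WT sham range, and the other TAC hearts were above every sham heart.

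The receptors differed from each other in how their levels spread. Tgfbr1, the type I receptor kinase that phosphorylates the SMAD proteins, had 22.4, 23.9 and 22.0 CPM in WT sham hearts, and all other groups lay above them, with 24.1, 29.1 and 30.7 CPM in F3-KO sham, 29.1, 25.1 and 27.5 CPM in WT TAC and 34.9, 53.0 and 30.7 CPM in F3-KO TAC hearts. It was the only member whose F3-KO and WT hearts did not overlap after TAC. The genotype difference on the log2 scale was 0.29 ± 0.19 after sham (adjusted p = 0.998) and 0.54 ± 0.18 after TAC (adjusted p = 0.461), and 0.26 ± 0.14 after TAC without F3-KO TAC replicate 2 (adjusted p = 0.845). TAC against sham gave 0.26 ± 0.19 in WT (adjusted p = 0.839) and 0.50 ± 0.18 in F3-KO hearts (adjusted p = 0.213), or 0.22 ± 0.14 in F3-KO without replicate 2 (adjusted p = 0.653).

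Tgfbr2, the ligand-binding type II receptor, did not follow F3-KO TAC replicate 2. WT sham hearts had 76.7, 100.8 and 74.9 CPM and F3-KO sham hearts 90.6, 102.2 and 83.0 CPM. The F3-KO TAC hearts were closely grouped at 122.0, 129.5 and 127.1 CPM, all above every sham heart. WT TAC replicate 1 had the highest level of the series at 165.5 CPM, and the other WT TAC hearts had 97.4 and 92.9 CPM. The SD of log2 CPM among F3-KO TAC hearts was 0.04, and 96.5% of all genes tested had a larger SD in that group. Tgfbr2 was 0.50 ± 0.21 higher after TAC in WT (adjusted p = 0.782) and 0.46 ± 0.20 in F3-KO hearts (adjusted p = 0.282), or 0.43 ± 0.24 in F3-KO without replicate 2 (adjusted p = 0.593). Without WT TAC replicate 1 the WT difference was 0.18 ± 0.15 (adjusted p = 1.0), and F3-KO against WT after TAC moved from 0.09 ± 0.20 to 0.41 ± 0.15 (adjusted p = 0.898 and 0.255). The averaged difference was 0.48 ± 0.15, or 1.39-fold (adjusted p = 0.144). Per kilobase, the ratio of Tgfbr2 to Tgfbr1 ran from 1.91 in F3-KO TAC replicate 2 to 4.46 in WT TAC replicate 1.

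Smad7, the inhibitor, had 14.5, 29.2 and 29.2 CPM in WT sham, 24.8, 25.1 and 31.2 CPM in F3-KO sham, 26.7, 20.4 and 24.5 CPM in WT TAC and 18.1, 25.4 and 16.1 CPM in F3-KO TAC hearts. WT sham replicate 1 was the lowest of the series, and the F3-KO TAC hearts held the next lowest pair. All groups overlapped. The log2 difference after TAC was -0.03 ± 0.25 in WT (adjusted p = 0.991), a sign that changed with the test used, and -0.44 ± 0.25 in F3-KO hearts (adjusted p = 0.398). It moved to -0.67 ± 0.27 without F3-KO TAC replicate 2 (adjusted p = 0.455), since that heart had the highest Smad7 level of its group.

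**Figure D3:**
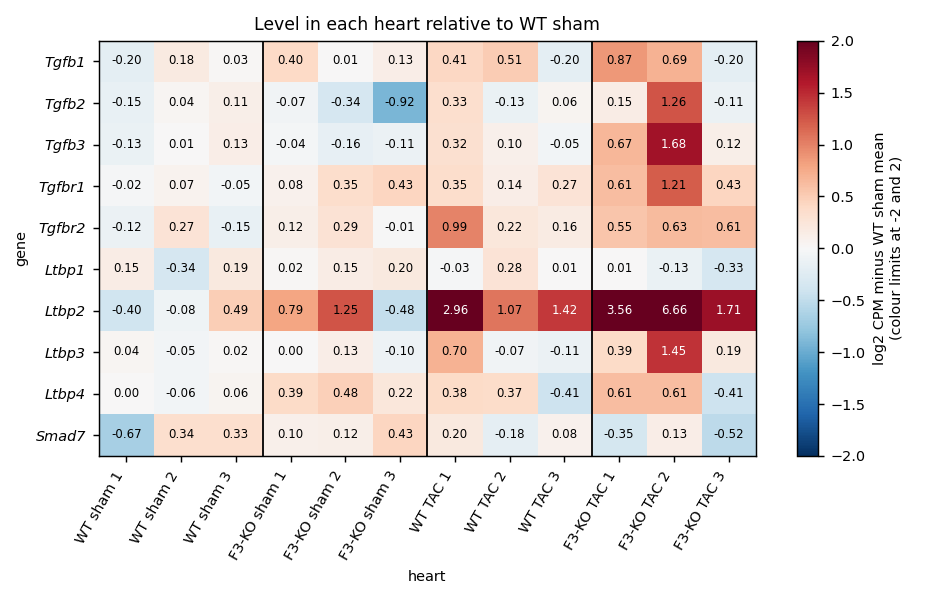
Log2 CPM of each gene in each heart minus the mean of the WT sham hearts, as colour and as a printed value. Values of F3-KO TAC replicate 2 reach 1.26 for Tgfb2, 1.68 for Tgfb3, 1.21 for Tgfbr1, 1.45 for Ltbp3 and 6.66 for Ltbp2, and are -0.13 for Ltbp1 and 0.13 for Smad7.

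Separation of the groups was read gene by gene and set beside the share of all genes without overlap, in either direction. After TAC in F3-KO hearts 5 of 10 members did not overlap with sham (Tgfb3, Tgfbr2, Ltbp2 and Ltbp3 higher, Ltbp1 lower), against 22.9% of all genes. In WT hearts it was 2 of 10 (Tgfbr1 and Ltbp2, both higher), against 9.1%. F3-KO and WT did not overlap for 2 of 10 members after sham (Tgfbr1 and Ltbp4, both higher in F3-KO), against 13.7%, and for 1 of 10 after TAC (Tgfbr1), against 11.4%. The genotype comparison after TAC shares its F3-KO TAC hearts with the comparison within F3-KO and its WT TAC hearts with that within WT. The comparisons within a genotype share sham hearts with the sham comparison, so these counts are not independent of each other.

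The highest of all 12 hearts was F3-KO TAC replicate 2 for 5 members, F3-KO TAC replicate 1 for Tgfb1 and Ltbp4, and 1 of 3 other hearts for Tgfbr2, Ltbp1 and Smad7. Within F3-KO TAC hearts the highest level of Ltbp2 was 31.8-fold the lowest, and its SD of log2 CPM of 2.5 was exceeded by 0.475% of all genes. The same ratio was 2.98 for Tgfb3, 2.6 for Tgfb2, 2.39 for Ltbp3 and 1.73 for Tgfbr1. It was 1.06 for Tgfbr2. In WT sham hearts no member other than Smad7 had a ratio above 2.

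**Figure D4:**
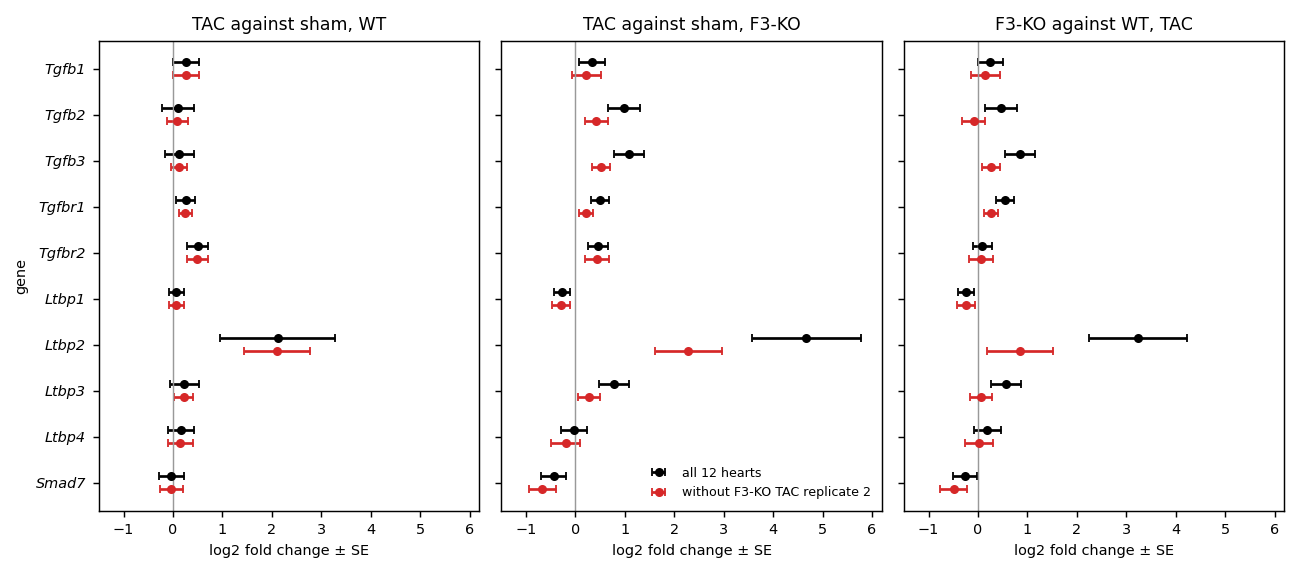
Log2 fold change of each gene with its SE for TAC against sham in WT and in F3-KO hearts and for F3-KO against WT after TAC, from all 12 hearts (black) and without F3-KO TAC replicate 2 (red). Leaving out the heart brings Ltbp2 from 4.67 to 2.28 in F3-KO hearts and from 3.23 to 0.85 between genotypes, and leaves the WT values nearly in place.

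Some lists of marker genes of other cells moved with these levels in whole-heart RNA, in which more cells of a type and more RNA per cell cannot be told apart. The 5 markers of activated fibroblasts summed to 29.4 to 36.7 CPM in WT sham, 53.1 to 89.3 in F3-KO sham, 46.2 to 414.2 in WT TAC and 57.5 to 1735 CPM in F3-KO TAC hearts, scaled by library totals. The highest sum was in F3-KO TAC replicate 2, followed by F3-KO TAC replicate 1 at 675.4 CPM and WT TAC replicate 1 at 414.2 CPM, the same hearts and the same order as for the 3 highest Ltbp2 levels. All 5 of these markers were highest in replicate 2 among the F3-KO TAC hearts, and Cthrc1 was at 0 in at least 1 heart of the series. Postn, which encodes periostin, is on this list and among the target genes below. The 6 general fibroblast markers summed to 565.2 to 1470 CPM in WT sham, 776.1 to 1094 in F3-KO sham, 850.7 to 1322 in WT TAC and 1229 to 2148 CPM in F3-KO TAC hearts, with 6 of 6 highest in replicate 2 of the last group and none at 0. Their part in the levels of Ltbp2, Ltbp3, Tgfb2, Tgfb3 and Tgfbr1 was not tested.

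**Figure D5:**
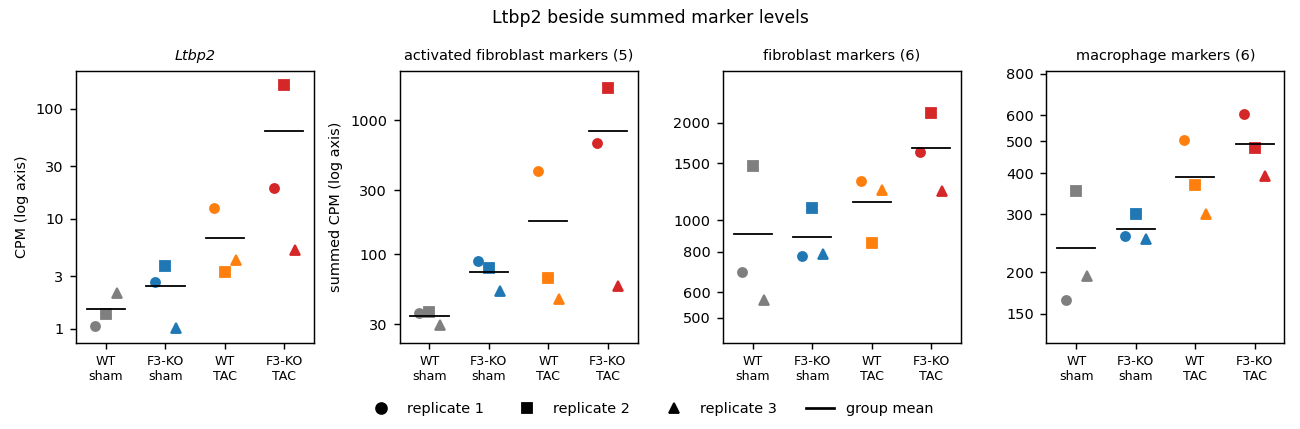
Ltbp2 level (CPM, log axis) in each heart beside the summed levels of activated fibroblast, fibroblast and macrophage markers (summed CPM, log axes), with 1 point per heart and a line at the group mean. Ltbp2 and the activated fibroblast markers have the same 3 highest hearts, and the macrophage sum is highest in F3-KO TAC replicate 1 at 606.0 CPM.

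The atrial list peaked in the same heart. The 4 atrial markers summed to 4216 CPM in F3-KO TAC replicate 2, against 44.2 to 195.4 in WT sham, 169.1 to 336.3 in F3-KO sham and 142.3 to 1144 CPM in WT TAC hearts. The other F3-KO TAC hearts had 167.7 and 985.9 CPM, 4 of 4 markers were highest in replicate 2, and Sln and Myl7 were at 0 in at least 1 heart. The list includes Nppa, which stressed ventricles express too. The cardiomyocyte sum was lowest there, at 33152 CPM. The 5 endothelial markers, none at 0, had their lowest sums in the hearts that were lowest for Ltbp4. These were 628.4 CPM in WT TAC replicate 3 and 647.3 in F3-KO TAC replicate 3, against 799.9 to 1301 CPM in the other 10 hearts. Both hearts were low for Tgfb1 too, at 36.8 and 36.9 CPM. WT sham replicate 1 was as low for Tgfb1, at 36.8 CPM, with an endothelial sum of 805.4 CPM. The 6 macrophage markers, none at 0, summed to 165.2 to 352.1 CPM in WT sham, 252.3 to 300.0 in F3-KO sham, 299.8 to 502.7 in WT TAC and 391.7 to 606.0 CPM in F3-KO TAC hearts. As with Tgfbr2, all F3-KO TAC hearts were above every sham heart and WT TAC replicate 1 was the highest WT TAC heart. The 3 markers of proliferating cells, of which Cdk1 was at 0 in at least 1 heart, summed to 1.72 to 10.2 CPM in WT sham, 4.71 to 6.79 in F3-KO sham, 1.49 to 77.0 in WT TAC and 2.47 to 195.6 CPM in F3-KO TAC hearts. The mural, mesothelial, platelet, neutrophil, T cell and adipocyte sums were not highest in F3-KO TAC replicate 2. Mural and mesothelial sums there were 745.7 and 12.4 CPM, against highest sums of 999.8 and 51.5 CPM in other hearts. The part of these lists in the levels of the members was not tested either.

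Of the other genes of the pathway, 61 had been listed by role, 60 were in the table and 59 were tested, and 0 were called in any of the 6 comparisons. At an unadjusted p under 0.05, 22 were higher and 2 lower after TAC in F3-KO hearts, and 9 were higher and 3 lower in WT hearts. Averaged over genotypes the counts were 22 and 1, for F3-KO against WT 2 and 2 after sham and 11 and 1 after TAC, and for the interaction 2 and 1. The shares of all genes in either direction were 17.1% in F3-KO and 6.28% in WT hearts, 17.8% averaged, 6.02% and 10% between genotypes and 4.48% for the interaction. Without F3-KO TAC replicate 2 the counts were 11 and 1 in F3-KO hearts, against 9.94% of all genes, and 3 and 2 between genotypes after TAC, against 5.94%. In WT hearts they were then 14 and 2, against 6.36%. DESeq2 called 6 of the 59 after TAC in F3-KO hearts (3% of all genes), 13 averaged over genotypes (4.06%) and Thbs1 alone between genotypes after TAC, where it called 0.594% of all genes, and limma-trend called 0. Of the 12 target genes, which include the collagens, fibronectin and periostin, 12 were on the higher side after TAC in F3-KO hearts and 9 had an unadjusted p under 0.05, with a median log2 fold change of 1.78, or 1.04 without F3-KO TAC replicate 2. In WT hearts 10 were on the higher side and 6 had an unadjusted p under 0.05, with a median of 1.39. Leaving out F3-KO TAC replicate 2 changed the numbers with such a p to 4 of 12 in F3-KO and 8 of 12 in WT hearts. The shares of all genes were then 9.94% and 6.36%. The 14 anchors and activators of latent TGF-beta, among them integrins, fibrillins and thrombospondin, had a median of 0.45 in F3-KO hearts, or 0.35 without replicate 2, and 0.17 in WT hearts. Much smaller medians came from the 9 other receptors and co-receptors, at -0.07 in F3-KO (-0.13 without replicate 2) and -0.06 in WT hearts, and the 7 SMAD proteins, at 0.03 (-0.03 without replicate 2) and 0.02, beside 0.02 and 0.00 for all genes. The 10 inhibitors of signalling had 0.16 in F3-KO hearts (0.06 without replicate 2) and -0.01 in WT hearts, and the 7 BMP, activin and GDF ligands tested had 0.53 (0.24 without replicate 2) and 0.52. Between genotypes after TAC the medians were 0.96 for the targets and 0.47 for the anchors and activators, beside 0.02 for all genes, and 0.27 and 0.18 without F3-KO TAC replicate 2.

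By the smallest unadjusted p in the averaged TAC comparison, 4 of these genes are named. Lox, the enzyme that cross-links collagen and elastin, was 5.63-fold higher after TAC averaged over both genotypes (adjusted p = 0.101). Mmp14, a membrane protease able to release latent TGF-beta, was 2.36-fold higher (adjusted p = 0.104). Ctgf, connective tissue growth factor, was 2.92-fold higher (adjusted p = 0.104), with 3.86-fold in WT and 2.21-fold in F3-KO hearts. Thbs1, thrombospondin 1, an activator of latent TGF-beta, was 3.34-fold higher (adjusted p = 0.104). For Thbs1 the F3-KO TAC hearts had 71.6, 97.4 and 9.9 CPM, with replicate 3 below all 3 F3-KO sham hearts, which had 12.3, 14.5 and 10.7 CPM. Ctgf had its highest level in WT TAC replicate 1, at 653.7 CPM, against 391.3 CPM in F3-KO TAC replicate 2.

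The genes named next are those whose log2 CPM followed each member most closely over all 12 hearts, F3-KO TAC replicate 2 among them. For members that peaked in that heart, a lower r without it can come from this choice of genes. The points share libraries, so these correlations describe 12 hearts in 4 groups and carry no test. Ltbp2 was closest to Thbs4 (Pearson r = 0.98, and 0.94 over 11 hearts without F3-KO TAC replicate 2), which is also on the list of activated fibroblast markers. Dpysl3 had 0.98 and 0.94, and Loxl3 0.97 and 0.92. For Tgfb3 the closest genes were Fzd2 (0.97, then 0.85), Enpp1 (0.96, then 0.86) and Sprr1a (0.96, then 0.88). Fzd2 was also near the top for Ltbp3 (0.96, then 0.83), with Cyb5r3 (0.96, then 0.83) and Wdr47 (0.95, then 0.88). Tgfbr1 was closest to Gdf15 (0.97, then 0.9), Fibin (0.95, then 0.87) and Mmp2 (0.94, then 0.85), and Tgfb2 to Fxyd6 (0.92, then 0.79), Zfp521 (0.92, then 0.81) and Tmem158 (0.91, then 0.78).

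The remaining members were close to genes whose correlation moved little without that heart, up or down, and the shifts for Ltbp2 were small as well. Tgfb1 was closest to Csk (0.97 in both), Cfl1 (0.96 in both) and Coro1c (0.96 in both). Tgfbr2 was closest to Rasa3 (0.97, then 0.96), Ppp1r21 (0.96, then 0.95) and Il1r1 (0.95, then 0.96), and Ltbp4 to Dclk2 (0.94 in both), Erlin2 (0.93 in both) and Trim37 (0.93, then 0.91). Ltbp1 had Htra1 (0.91 in both), Sco2 (0.9, then 0.89) and Ptges2 (0.89, then 0.93). The lowest values were those of Smad7, with Klhl11 (0.85, then 0.88), Hist2h3c2 (0.8, then 0.84) and Naa80 (0.79, then 0.8).

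Counts of Tgfbr1, Ltbp3 and Ltbp4 were not whole numbers in any of the 12 hearts, nor were those of Tgfb2 in 6 and of Ltbp2 in 5, and how the counting divided reads was not tested. In the GENCODE M21 annotation, exons of Ltbp2 share 764 bases with D030025P21Rik on the opposite strand, those of Tgfb3 420 bases with Gm37804 and Gm48008, and those of Tgfb2 124 bases with Gm29491. Whether the counting used the strand is not given in the sources used here, so reads of these stretches cannot be told apart from those of the partner gene.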

How the data were processed

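RNA of 12 hearts was sequenced. The authors extracted it with Trizol, and removed low-quality reads and mapped the rest (per the labels with HISAT2 2.0.4 and STAR 2.3.0, which also name the builds mm8 and mm9). They deposited estimated counts per gene, not normalized, of which 40.6% were not whole numbers. The counting tool is not given in the sources used here. The joint table was used, after each heart's own table was checked and held the same values (WT sham replicate 2 in its 133 rows, where it breaks off).

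Counts were rounded to whole numbers, which the planned test for counts needs, and filtered with filterByExpr (minimum count 10). TMM scaling gave factors between 0.931 and 1.09, and all 4 groups entered 1 model in edgeR 4.0.16 in R 4.3.3 (quasi-likelihood test, Benjamini-Hochberg adjusted p under 0.05 over all 14094 genes). The test was first checked on simulated data. SEs, folds and adjusted p are from this fit unless DESeq2 1.42.0 is named. Log2 CPM used a prior count of 2. Marker sums were scaled by library totals. Exon lengths are merged exons of protein-coding transcripts in GENCODE M21, and promoters are from RefSeq, GRCm38.p6. Alternatives were other scalings, filters and tests (limma 3.58.1 among them), a replicate block, only the groups compared, and leaving out each heart.

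Replicates are separate hearts of a group. All 10 members are named, and Fabp3 as a check of the labels. Pathway genes were to be named if called, or else the 4 with the smallest unadjusted p in the averaged TAC comparison. For each member the 3 genes with the highest Pearson r were named. The members and gene lists were chosen with earlier results of these data known.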

Additional observations from a re-analysis of the deposited data

How the results depend on the processing

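These comparisons rest on 3 hearts a group. The biological coefficient of variation over all genes was 0.294 in F3-KO TAC, 0.259 in WT TAC, 0.207 in WT sham and 0.138 in F3-KO sham hearts. Ltbp2 had few reads in sham hearts, 11 counts at the fewest in WT. A p that misses the threshold does not show equal levels.

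The 0 members called in WT hearts, between genotypes and for the interaction stayed at 0 under each alternative. For TAC against sham in F3-KO hearts 2 were called by DESeq2 and 5 by limma's voom with sample quality weights, an alternative chosen after seeing the data (Tgfb2, Tgfb3, Tgfbr1, Ltbp2 and Ltbp3, beside 1529 of all 14094 genes), and 0 to 3 when 1 heart was left out. Averaged over genotypes DESeq2 called 1, and leaving out 1 heart gave 0 to 3. The cause was not tested.

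A few log2 fold changes near 0 turned sign. Smad7 after TAC in WT hearts came to 0.04 with limma-trend, 0.02 with the replicate block and 0.09 with voom, and Ltbp4 in F3-KO hearts to 0.09 with library totals only and 0.12 with voom. With 1 heart left out, the ranges that crossed 0 included, in WT hearts after TAC, -0.03 to 0.2 for Tgfb2, -0.08 to 0.17 for Ltbp1, -0.09 to 0.37 for Ltbp3 and -0.29 to 0.13 for Smad7. For Ltbp4 they were -0.2 to 0.24 in F3-KO hearts and -0.02 to 0.2 averaged. Between genotypes they were -0.11 to 0.3 for Smad7 after sham, and after TAC -0.09 to 0.71 for Tgfb2, -0.06 to 0.41 for Tgfbr2 and -0.03 to 0.45 for Ltbp4. Of the log2 fold changes of single members recomputed under the alternatives, 980 kept their sign and their side of the threshold, 14 passed the threshold with the same sign and 22 turned sign.

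The replicate number as a block left 0 members called in all 6 comparisons. Of 18 pairs of hearts with the same number 4 correlated above 0.1 (range -0.141 to 0.362), and 6 of 12 hearts correlated best with a heart of their own number. The highest value, 0.362, was between replicate 3 of WT TAC and replicate 3 of F3-KO TAC. These values do not decide whether the numbers pair hearts. The labels name no pairing, and the main fit left the number out.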
